A study of Mus musculus with 9 samples.

Results

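Slc4a1, Epb42, Rhag, Ermap, Hemgn, Trim10, Car1, Car2, Tfrc and Ypel4 are 10 genes of the red cell membrane and of its nucleated precursor, the erythroblast, among 18193 genes measured. They were taken by name, with every probe set that the platform annotation assigned to them, which gave 18 of 45101 probe sets. Of these, 15 were ordinary probe sets and 3 were array controls for Tfrc. The genes were chosen by name with their log2 levels in VSEL, HSC and ESC on these same arrays already known. All 3 contrasts therefore count as used in the choice, and the levels and differences of the 10 genes are given as a description. Where calls of the fit over all genes are printed for them, these carry no weight as a test.

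The 9 arrays held 3 of each cell type. VSEL are the cells called very small embryonic-like, HSC are the cells labelled haematopoietic stem cells and ESC are embryonic stem cells. HSC is used here as the name of a gate, and stem cell and lymphocyte markers of these libraries are given below. The VSEL gate was Sca-1+Lin–CD45– and the HSC gate Sca-1+Lin–CD45+, both sorted from bone marrow mononuclear cells of C57BL/6 mice at 4 weeks of age. The ESC were the D3 line of strain 129S2/SvPas, derived from an embryo before implantation, kept on 0.1% gelatin in medium with LIF at 10 ng/ml, and trypsinized before sorting. Every library was amplified by PCR from 20 sorted cells, and no group carried a transgene or drug treatment in the labels. The labels leave unsaid whether each library had its own mouse, pool or culture, so the spread and p-values cover only these libraries, and that spread may be technical. VSEL arrays 2 and 3 correlated at r = 0.989 over probe sets, against 0.831 to 0.957 for the other pairs within a group, and were averaged as 1 library (VSEL 2+3). Values are log2 RMA values (a log2 scale of probe brightness after normalization), given as mean ± SD with n = 2 for VSEL, 3 for HSC and 3 for ESC.

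Red cells carry oxygen and help to move carbon dioxide, and their precursors mature in the bone marrow. Band 3 and the Rh complex are the main protein complexes of the red cell membrane and hold the spectrin skeleton to it. Carbonic anhydrases in the cytoplasm convert carbon dioxide to bicarbonate, which band 3 exchanges for chloride, while the transferrin receptor brings in the iron used for haem. The factors GATA1, TAL1 and KLF1 switch on many of these genes as erythroblasts mature. Surface markers of mature red cell precursors are commonly part of lineage antibody panels, but the labels do not list the antibodies used for these gates.

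The RefSeq promoter table (build GRCm38.p6) held 7 of the 10 genes, and the 250 bases before each listed start were searched on both strands. Of these 7 genes, 5 had a match to a GATA motif, which is AGATAA or AGATAG or TGATAA or TGATAG. A match lay in 62.5% of the members' 8 promoters, while 26.5% of all 32851 promoters in the table had one. Stretches around the 5 matches are shown because these are the members with a match, with the matched letters in capitals. They lie at chr2:121036878-121037127 (minus strand, Epb42), chr17:40811106-40811135 (plus strand, Rhag), chr4:119190014-119190245 (minus strand, Ermap), chr4:46404184-46404433 (minus strand, Hemgn) and chr17:36869324-36869495 (plus strand, Trim10).
Epb42: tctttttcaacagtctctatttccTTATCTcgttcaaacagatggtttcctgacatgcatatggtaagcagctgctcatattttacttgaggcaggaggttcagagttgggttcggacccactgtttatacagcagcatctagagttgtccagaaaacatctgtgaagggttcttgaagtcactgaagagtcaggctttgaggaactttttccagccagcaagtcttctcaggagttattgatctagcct
Rhag: agtcctctgctcTTATCAacactatacagc
Ermap: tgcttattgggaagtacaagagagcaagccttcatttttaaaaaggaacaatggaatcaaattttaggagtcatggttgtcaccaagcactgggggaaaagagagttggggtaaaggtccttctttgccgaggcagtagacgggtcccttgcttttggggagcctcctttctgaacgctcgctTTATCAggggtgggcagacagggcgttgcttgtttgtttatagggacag
Hemgn: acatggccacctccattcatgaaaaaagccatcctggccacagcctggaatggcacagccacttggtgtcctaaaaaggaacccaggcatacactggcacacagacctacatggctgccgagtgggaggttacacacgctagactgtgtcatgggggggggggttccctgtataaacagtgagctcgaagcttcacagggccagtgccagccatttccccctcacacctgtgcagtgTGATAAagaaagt
Trim10: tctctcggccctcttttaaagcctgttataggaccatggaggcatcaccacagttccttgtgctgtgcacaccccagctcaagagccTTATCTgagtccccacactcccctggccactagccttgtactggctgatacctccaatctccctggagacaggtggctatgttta
The match began 226 bases before the listed start in Epb42, 31 in Rhag, 67 in Ermap, 13 in Hemgn and 163 in Trim10. The Rhag match lies inside the RefSeq gene span, which begins at chr17:40811099, upstream of the listed start, so only 30 bases around it are shown. For Ermap and Trim10 the bases inside the gene span were left out. TTATCT is AGATAA read on the other strand, and TTATCA is likewise TGATAA. The Hemgn match was also the end of a longer composite with an E-box part (CTG, then 7 or 8 bases of any kind, then GATAA, which overlaps the GATA motif). This composite was matched in 1.25% of all promoters and in no other member. Neither Ypel4 nor the 2 listed starts of Tfrc had a GATA match. CCNCNCCC, a form of the box bound by KLF factors, was matched in 3 of the 7 genes (Hemgn, Tfrc and Ypel4; 50% of the 8 promoters) and in 45.9% of all promoters. In Hemgn the matches overlap within an unbroken run of G, which this loose pattern also accepts. Among 49 other red cell genes in the table, 22 had a GATA match, in 31.9% of their 69 promoters. These matches are descriptions of letters, and no binding was measured.

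The genes of the membrane came highest in VSEL. Slc4a1 encodes band 3, the anion exchanger that also anchors the skeleton. Its log2 level was 14.18 in VSEL 1 and 13.04 in VSEL 2+3. It was 8.26, 8.56 and 10.12 in HSC 1, 2 and 3, and 6.77, 5.37 and 6.03 in ESC 1, 2 and 3. The 3 cell types did not overlap, and the order was VSEL, HSC, ESC. The lowest VSEL library stood 2.91 above the highest HSC library, which is more than the HSC range of 1.86. The mean was 13.61 ± 0.81 in VSEL, 8.98 ± 1.0 in HSC and 6.06 ± 0.70 in ESC, so that VSEL lay 24.7-fold above HSC (log2 difference 4.63, SE 0.70) and 187-fold above ESC (7.55, SE 0.70).

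Epb42 encodes protein 4.2, a relative of transglutaminases without enzyme activity that binds band 3. Its probe sets gave different pictures. On probe set 1417337_at the level was 11.06 in VSEL 1 and 8.43 in VSEL 2+3, against 2.70, 3.10 and 3.01 in HSC and 3.10, 2.96 and 2.91 in ESC. This probe set was far above every HSC and ESC library in both VSEL libraries, and VSEL 1 was the higher of them. The differences were 6.80 (SE 0.69) from HSC and 6.75 (SE 0.69) from ESC, about 112-fold and 108-fold. HSC and ESC lay far under the lower quartile of all genes here (4.49 to 4.55 in those libraries), so the size of these folds rests on values with no sure order. Probe set 1417338_at read 5.25 and 5.50 in VSEL, 4.82 to 5.04 in HSC and between 4.77 and 5.09 in ESC, all within 0.73 of each other. The rule of taking the probe set with the highest mean chose 1417338_at, with 5.081 against 5.077 for the other, so the gene's value in the main fit, a difference of 0.47 from HSC, comes from the flat probe set.

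Slc4a1 and Tfrc also had dim probe sets. For Slc4a1, 1434502_x_at gave 14.14 and 12.85 in VSEL, 8.01 to 9.50 in HSC and between 4.67 and 7.17 in ESC, close to the main probe set. The third, 1431743_a_at, stayed between 4.99 and 5.64 in all 8 libraries. For Tfrc, 1422966_a_at lay between 4.26 and 5.65 and 1422967_a_at between 3.09 and 4.72, while the 3 array control probe sets lay between 2.90 and 4.47 on the 9 arrays. The lower quartile of all genes, used here as a floor, was 4.72 and 4.78 in VSEL, 4.49 to 4.53 in HSC and between 4.54 and 4.55 in ESC, so these probe sets read near or under the floor in most libraries.

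**Figure D1:**
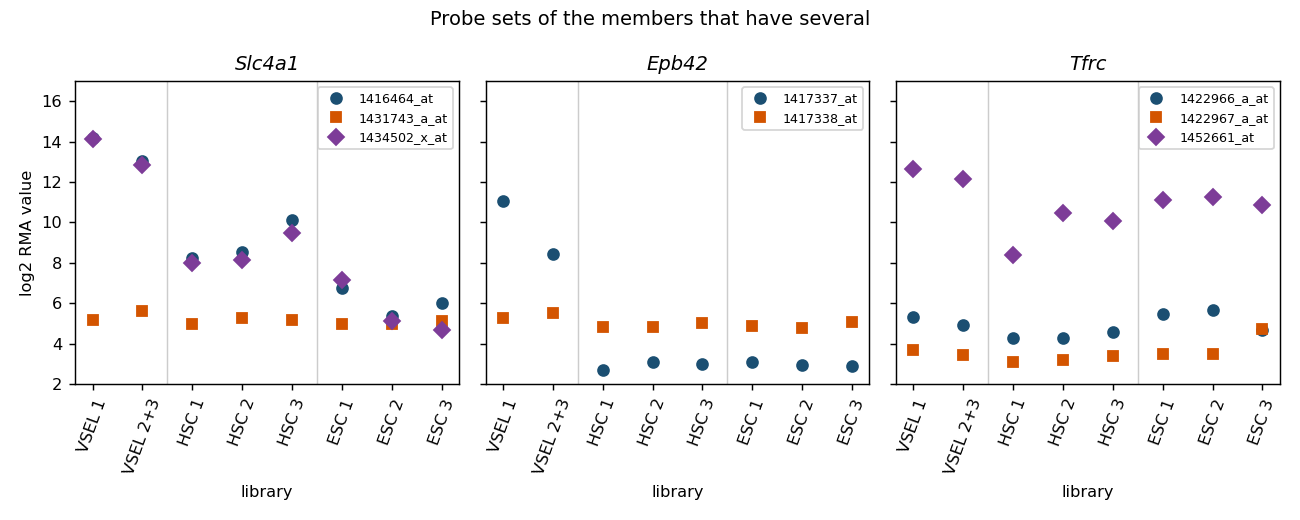
Log2 RMA values (y axis) of every ordinary probe set of the 3 members that have several, in each of the 8 libraries (x axis), with 1 symbol per probe set and no error bars. Slc4a1 has 2 probe sets that follow each other and 1 flat one, Epb42 has 1 that reaches 11.06 and 1 that reaches 5.50, and Tfrc has 1 bright and 2 dim ones.

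Rhag encodes the Rh-associated glycoprotein, a channel-like protein that carries the Rh blood group proteins to the surface. The level was 9.36 in VSEL 1 and 7.84 in VSEL 2+3, 5.40, 3.90 and 7.66 in HSC 1, 2 and 3, and 3.37, 2.92 and 3.53 in ESC. HSC 3 came within 0.18 of VSEL 2+3, while HSC 2 lay near the ESC libraries. The means were 8.60 ± 1.1 in VSEL, 5.65 ± 1.9 in HSC and 3.28 ± 0.31 in ESC. The difference between VSEL and HSC was 2.95 (SE 1.06), smaller than the HSC range of 3.76, and it was 2.07 without HSC 2 and 3.95 without HSC 3. Against ESC it was 5.32 (SE 1.06). Every HSC library lay above every ESC library, but HSC 2 and all 3 ESC libraries were under the lower quartile of all genes, where the order is not sure.

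Ermap encodes a membrane protein of the butyrophilin family that carries the human Scianna blood group. It measured 13.22 and 12.00 in VSEL 1 and VSEL 2+3, 8.53, 8.83 and 9.56 in HSC, and 6.04, 5.36 and 5.71 in ESC. The 3 cell types were clearly apart, with gaps of 2.44 between VSEL and HSC and 2.49 between HSC and ESC. From means of 12.61 ± 0.86, 8.97 ± 0.53 and 5.70 ± 0.34, VSEL was 12.5-fold above HSC (log2 difference 3.64, SE 0.46) and 120-fold above ESC (6.91, SE 0.46), and HSC was 9.65-fold above ESC (3.27, SE 0.42). Over the 8 libraries Ermap and Slc4a1 followed each other more closely than any other pair of members, at r = 0.99. That value describes 8 libraries that fall into 3 cell types.

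Hemgn and Trim10, named for the erythroblast rather than the membrane, showed large differences between VSEL and HSC. Hemgn encodes hemogen, a nuclear protein of blood cell precursors. It read 12.52 in VSEL 1 and 11.07 in VSEL 2+3, 7.14, 3.26 and 6.40 in HSC 1, 2 and 3, and 3.50, 3.89 and 3.53 in ESC. HSC 2 lay below all 3 ESC libraries, while HSC 1 and 3 lay above them, so HSC and ESC overlapped. With means of 11.80 ± 1.0, 5.60 ± 2.1 and 3.64 ± 0.21 in VSEL, HSC and ESC, VSEL stood 73.3-fold above HSC (log2 difference 6.20, SE 1.13) and 286-fold above ESC (8.16, SE 1.13). The ESC libraries and HSC 2 lay under the floor, where these values have no sure order.

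Trim10 encodes a RING finger protein of maturing erythroid cells. Its level was 12.88 in VSEL 1 and 10.72 in VSEL 2+3, the widest gap between the VSEL libraries among the members (2.16). HSC 1, 2 and 3 gave 6.19, 7.84 and 5.10, and ESC gave 5.60, 5.29 and 5.81. HSC 2, which was lowest for Hemgn and Rhag, was highest for Trim10, and HSC 3 lay below every ESC library. The means were 11.80 ± 1.5, 6.38 ± 1.4 and 5.56 ± 0.26 in the same order. VSEL exceeded HSC by 5.43 (SE 0.91) and ESC by 6.24 (SE 0.91), whereas HSC and ESC differed by 0.81 (SE 0.82), which is within the spread of the HSC libraries.

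The carbonic anhydrases parted in their pattern over cell types. Car1, the isozyme of low activity that is abundant in red cells, measured 10.73 in VSEL 1 and 12.43 in VSEL 2+3, 8.10, 9.28 and 9.49 in HSC, and 4.71, 4.55 and 4.68 in ESC. It was the member with the largest step between HSC and ESC, 4.31 (SE 0.53), and the only member besides the flat Epb42 probe set with the lower value in VSEL 1. The group means were 11.58 ± 1.2 for VSEL, 8.96 ± 0.75 for HSC and 4.65 ± 0.089 for ESC. VSEL lay above HSC by 2.62 (SE 0.60), which became 3.48 with VSEL 2+3 alone and 1.77 with VSEL 1 alone.

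Car2, the fast isozyme found in red cells and many other tissues, measured 14.02 and 13.05 in VSEL, 11.33, 12.10 and 11.64 in HSC, and 10.98, 11.00 and 10.97 in ESC. All 8 libraries were thus bright, and ESC was well above the floor for this gene. Means of 13.53 ± 0.69, 11.69 ± 0.39 and 10.99 ± 0.016 followed for VSEL, HSC and ESC. The difference between VSEL and HSC was 1.84 (SE 0.34) and that between VSEL and ESC 2.55 (SE 0.34), and the highest ESC library was 0.33 under the lowest HSC library.

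Tfrc, the transferrin receptor (CD71), takes up iron in erythroblasts and in all dividing cells. On its bright probe set the level was 12.66 and 12.17 in VSEL, 8.37, 10.45 and 10.08 in HSC 1, 2 and 3, and 11.11, 11.28 and 10.89 in ESC. It was the member for which ESC stood wholly above HSC, by 0.43 between the nearest libraries. Its means were 12.41 ± 0.35 in VSEL, 9.64 ± 1.1 in HSC and 11.09 ± 0.20 in ESC. VSEL exceeded HSC by 2.78 (SE 0.60) and ESC by 1.32 (SE 0.60). Without HSC 1, the lowest library, the first difference was 2.14, and the mean of all ordinary Tfrc probe sets gave 1.29 and 0.29. Cell division genes were lowest in HSC, as Tfrc was, but they split between VSEL and ESC. Of 5 measured markers of proliferation, all 5 were called higher in VSEL than in HSC, and their median was lowest in HSC, at 8.41 to 9.57, against 11.69 and 11.84 in VSEL and 11.40 to 11.47 in ESC. In VSEL against ESC 2 of these 5 markers had higher means and 3 lower, with a median difference of -0.1 and 1 called higher. The part of these markers in the Tfrc result was not tested.

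Ypel4 belongs to the small yippee-like family of zinc-binding proteins. It read 10.01 and 9.65 in VSEL, 4.92, 4.74 and 4.47 in HSC, and 4.73, 4.75 and 4.92 in ESC. HSC and ESC lay together near the floor, and VSEL stood 4.74 above the nearest library of either. Group means were 9.83 ± 0.25 for VSEL, 4.71 ± 0.23 for HSC and 4.80 ± 0.10 for ESC. The difference from HSC was 5.12 (SE 0.20), 34.8-fold, and that from ESC 5.03 (SE 0.20), and these were the smallest errors among the members apart from the flat Epb42 probe set.

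**Figure D2:**
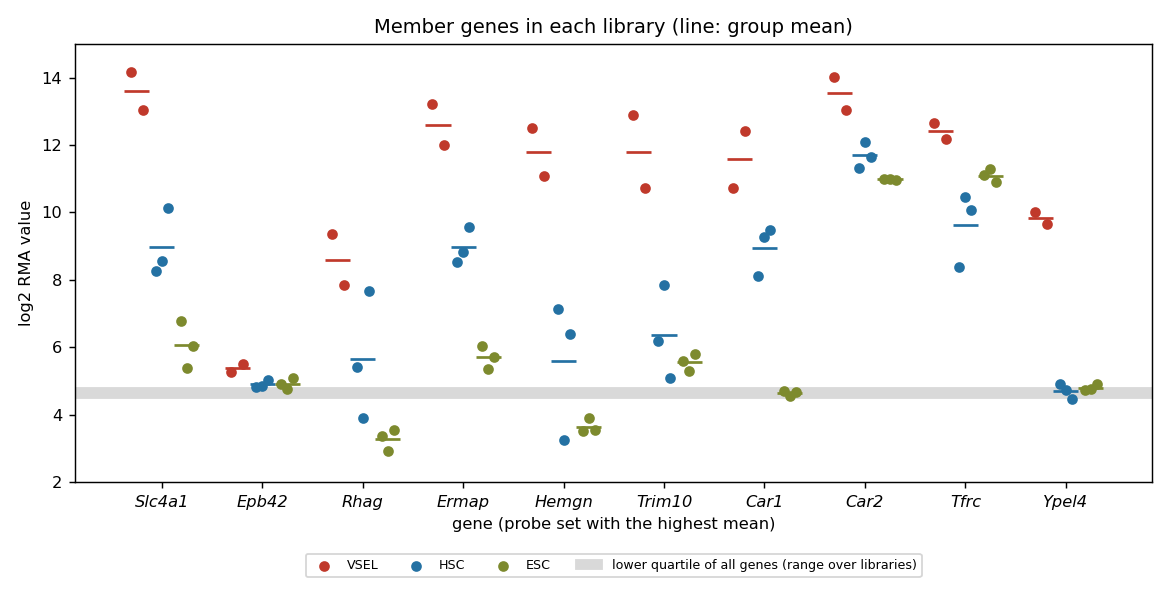
Log2 RMA values (y axis) of the 10 genes (x axis) on the probe set with the highest mean, with 1 point per library (2 VSEL, 3 HSC, 3 ESC) and a line at each group mean. The grey band is the range of the lower quartile of all genes over the libraries, and the VSEL points lie above all other points of the same gene, by as little as 0.17 for Epb42.

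With the 10 genes side by side, VSEL lay wholly above HSC for 10 of 10, where 37.8% of all genes did (17.3% lay wholly below), and wholly above ESC for 10 of 10, where 33% did (22.6% wholly below). HSC lay wholly above ESC for 5 (16.5% of all genes), namely Slc4a1, Rhag, Ermap, Car1 and Car2, and wholly below for Tfrc (21.5%). The median log2 difference over the members was 3.29 for VSEL against HSC, 5.78 for VSEL against ESC and 1.39 for HSC against ESC, where the medians over all genes were 0.22, 0.11 and -0.04. In the fit over all genes (limma, called at a Benjamini-Hochberg adjusted p under 0.05), 8 members were called higher in VSEL than in HSC, where 8.01% of all genes were (9.18% lower), and Epb42 and Rhag were not. Against ESC 8 were called higher, where 6.38% of all genes were (10.5% lower), and Epb42 and Tfrc were not. HSC was called higher than ESC for Slc4a1, Ermap and Car1, where 6.99% of all genes were called higher and 9.93% lower. The choice of the members fixes these counts, so nothing is read from them.

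**Figure D3:**
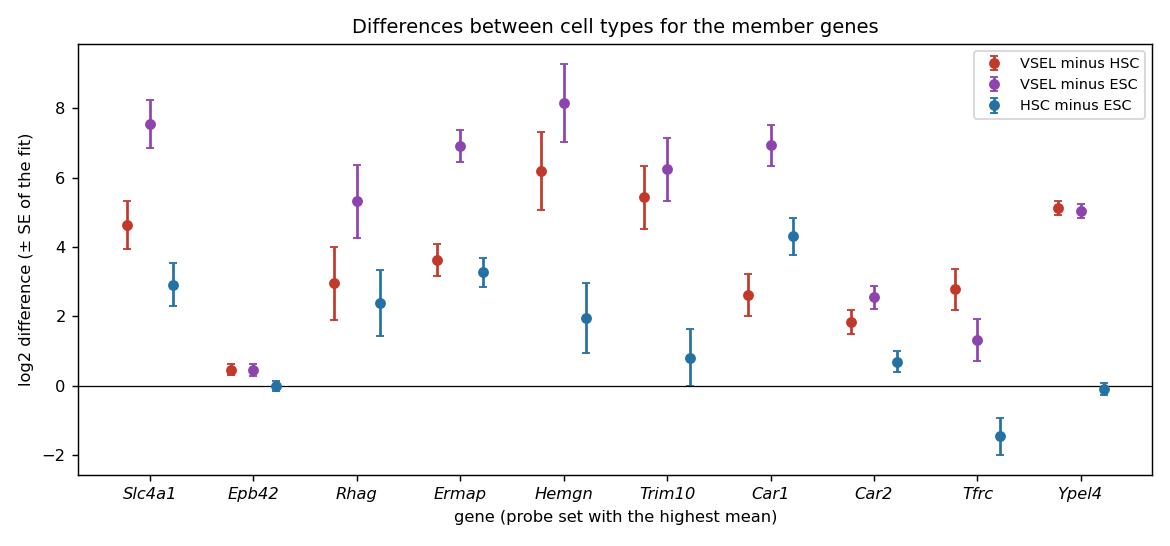
Log2 differences (y axis) between cell types for the 10 genes (x axis) on the probe set with the highest mean, with bars of ± 1 SE from the fit over all genes. Differences from HSC run from 0.47 for Epb42 to 6.20 for Hemgn, and Tfrc is the member with a clearly negative value for HSC minus ESC (-1.46).

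The VSEL libraries differed from each other. Of the 10 members, 8 were higher in VSEL 1 and 2 (Car1 and Epb42) in VSEL 2+3. The median of VSEL 1 minus VSEL 2+3 was 1.06 for the members, from -1.71 for Car1 to 2.16 for Trim10, while it was -0.02 for all genes, with quartiles of -0.35 and 0.32. Red cell genes outside the members spread more widely. Over 64 such genes (5 lists of membrane and skeleton, globin, haem and iron, regulator and maturation genes) the median was 1.10, and 48 were higher in VSEL 1.

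Some of those genes were bright in VSEL 1 and dim in VSEL 2+3. The following were picked after their values were seen. Gata1, the main erythroid transcription factor gene, measured 11.26 in VSEL 1 and 6.03 in VSEL 2+3. Gfi1b, a repressor gene of erythroid and platelet precursors, measured 12.04 and 7.17. Icam4, which encodes a blood group adhesion protein, measured 11.91 and 4.76, and the skeleton gene Tmod1 10.66 and 6.43. The urea transporter gene Slc14a1 ran the other way, with 5.88 in VSEL 1 and 10.76 in VSEL 2+3.

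**Figure D4:**
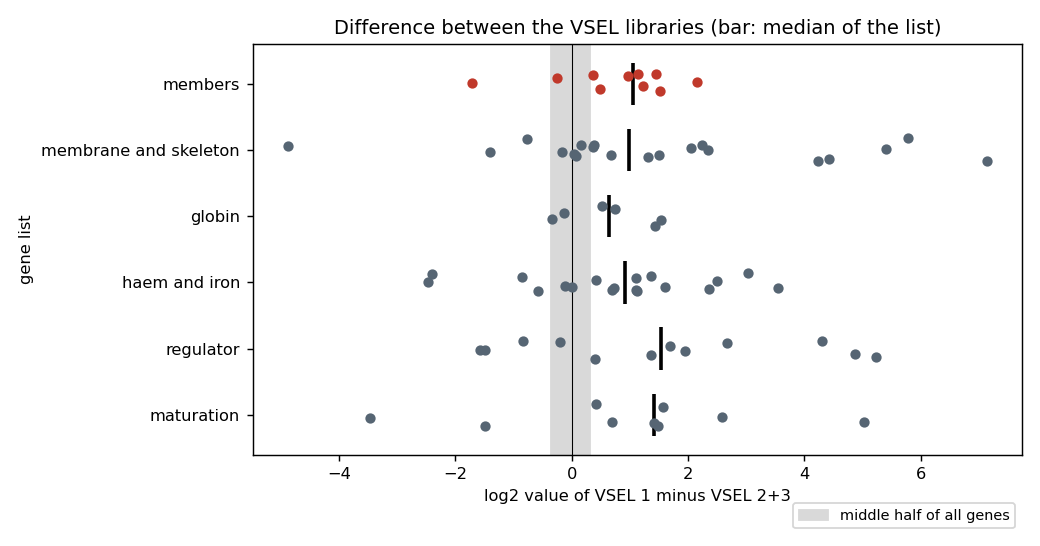
Log2 value of VSEL 1 minus VSEL 2+3 (x axis) for each gene of the members and of 5 lists of other red cell genes (y axis), with 1 point per gene and a bar at the list median. The grey band spans the quartiles of all genes (-0.35 to 0.32), and the list medians lie to the right of it, from 0.64 for globin genes to 1.52 for regulators.

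The HSC libraries also differed, with no library high for all members. HSC 3 was the highest of the 3 for 5 members, HSC 2 for 3 and HSC 1 for 2. HSC 1 was the lowest for 6. The widest ranges were 3.88 for Hemgn and 3.76 for Rhag, and the narrowest apart from the flat Epb42 probe set were 0.45 for Ypel4 and 0.77 for Car2. Within ESC, ranges ran from 0.03 for Car2 to 1.40 for Slc4a1. In these bulk libraries of 20 cells, fewer cells of a type and less RNA per cell cannot be told apart.

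The other red cell genes were tested in the same fit. These lists were put together with earlier results of these data known, and they hold no member. Of the 64 genes, 21 were called higher and 0 lower in VSEL than in HSC, and 43 were not called. Of all genes, 8.01% were called higher and 9.18% lower in this contrast (17.2% in either direction). The median difference was 1.83. Against ESC 25 were called higher and 0 lower, with a median of 2.39 (6.38% of all genes called higher and 10.5% lower). Between HSC and ESC 10 were called higher and 2 lower in HSC, with a median of 0.66. Of all genes, 6.99% were called higher and 9.93% lower there (16.9% in either direction). The count of 21 became 12 without VSEL 1, 12 without HSC 2 and 13 without HSC 1, and 6 when VSEL and HSC were fitted alone. The count of 12 for HSC against ESC became 19 without either VSEL library.

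In the membrane and skeleton list 7 of 20 genes were called higher in VSEL than in HSC. Kel, which encodes the Kell blood group protein, measured 12.18 and 12.13 in VSEL, 6.05, 7.83 and 9.34 in HSC, and 4.72 to 5.56 in ESC. The difference from HSC was 4.41 (limma adjusted p = 0.022). Ank1, the ankyrin that ties band 3 to spectrin, was 15.9-fold higher (adjusted p = 0.0122). Dmtn, an actin-bundling protein gene of the skeleton, was higher by 4.24 (adjusted p = 0.0137), and the claudin gene Cldn13 by 4.07 (adjusted p = 0.0253). Against ESC 8 of 20 were called higher, among them Kel by 7.11, Cldn13 by 6.15, Cd47 by 4.72 and Ank1 by 4.68 (adjusted p = 0.0047, 0.00674, 0.00122 and 0.0072). Cd47, which encodes a surface protein that restrains engulfment by macrophages, differed little between VSEL and HSC (0.36, adjusted p = 0.523).

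Of the 6 measured globin genes, Hbb-b2, an adult beta globin gene, was called. It measured 10.41 and 8.87 in VSEL, 6.29, 6.95 and 7.02 in HSC, and 2.89, 3.47 and 3.73 in ESC. VSEL was higher than HSC by 2.89 and than ESC by 6.28, and HSC was higher than ESC by 3.39 (adjusted p = 0.015, 0.00132 and 0.00359). The embryonic genes Hbb-y and Hbb-bh1 were not called, with differences from HSC of 0.48 and 0.54 (adjusted p = 0.257 and 0.411). The adult alpha globin genes Hba-a1 and Hba-a2 were not called either, with 0.58 and 1.10 (limma adjusted p = 0.0815 and 0.0639). Nor was the embryonic Hba-x, with 0.57 (limma adjusted p = 0.0762). The calls therefore do not part adult from embryonic globin genes. Probe sets assigned to several genes were not used, and globin genes are near-identical copies, so the measured globin genes are uncertain and do not cover the family.

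In the haem and iron list 7 of 18 genes were called higher in VSEL than in HSC, and 8 of 18 higher than in ESC. Alas2, the erythroid enzyme that starts the haem pathway, measured 13.43 and 12.33 in VSEL, 7.24 to 9.03 in HSC and between 4.59 and 5.35 in ESC. The mitochondrial transporter gene Abcb10 was higher than in HSC by 4.05 (adjusted p = 0.0142), the iron-inserting enzyme gene Fech by 3.65 (adjusted p = 0.0115) and the mitochondrial iron importer gene Slc25a37 by 3.00 (adjusted p = 0.0265). The Alas2 difference from HSC was 4.51 (adjusted p = 0.0063). Against ESC the largest called differences were 7.98 for Alas2, 4.97 for Slc25a37, 4.82 for Abcb10 and 3.89 for Uros (adjusted p = 0.00118, 0.00521, 0.00821 and 0.000998). Tfr2, the relative of Tfrc, read 7.75 and 6.62 in VSEL and 6.71 to 7.80 in HSC, and it was not called (difference -0.16, adjusted p = 0.814).

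In the regulator list 4 of 12 genes were called higher in VSEL than in HSC and 7 of 12 higher than in ESC. Lyl1, a relative of Tal1, was higher than in HSC by 3.04, Nfe2, a globin gene regulator, by 2.44, Lmo2, a bridging protein gene of the TAL1 complex, by 2.15 and Sox6 by 0.59 (adjusted p = 0.0311, 0.0458, 0.047 and 0.0409). Sox6 was dim, at 6.20 and 6.40 in VSEL and 5.61 to 5.81 in HSC. Its small step stands beside a median difference of 0.22 over all genes. Klf1, the erythroid Krüppel-like factor gene, measured 14.30 and 11.63 in VSEL, 9.62, 10.97 and 9.60 in HSC, and 4.83 to 5.55 in ESC. It was called against ESC (7.77, adjusted p = 0.00285) and not against HSC (2.90, adjusted p = 0.0581). Against ESC, Lyl1 was higher by 6.04, Nfe2 by 5.77 and Tal1 by 5.31 (adjusted p = 0.0035, 0.00313 and 0.0227). Gata1 was not called in any contrast, and its difference from HSC was 0.91 (adjusted p = 0.69).

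In the maturation list 2 of 9 genes were called higher in VSEL than in HSC. Ube2o, the ubiquitin enzyme gene of reticulocytes, was higher by 3.26 (adjusted p = 0.0258) and the nuclear export gene Xpo7 by 2.80 (adjusted p = 0.0217). Against ESC Tal1, which is in this list too, and Bpgm, the enzyme gene for the oxygen-releasing metabolite of red cells, were called (4.15 for Bpgm, adjusted p = 0.0237).

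Between HSC and ESC, 12 of the 64 were called, and 10 of these were higher in HSC. The total is close to the share of all genes called there (16.9%), so it is not read as a trait of the list. Cd47 was higher by 4.36 (limma adjusted p = 0.000309), Slc14a1 by 4.95 (0.0351) and the skeleton gene Add1 by 2.93 (0.00584), whereas Dmtn was lower (difference -2.61, adjusted p = 0.0399). In the haem and iron list Alas2 was higher by 3.47 (adjusted p = 0.0075) and Uros by 1.90 (0.00283), and the haem-binding protein gene Hebp1 was lower (difference -2.65, adjusted p = 0.0146). The regulators Klf1, Nfe2, Lyl1 and Lmo2 were higher by 4.87, 3.33, 3.00 and 2.49 (adjusted p = 0.00581, 0.00936, 0.0189 and 0.0184). With Hbb-b2 these are all 12.

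**Figure D5:**
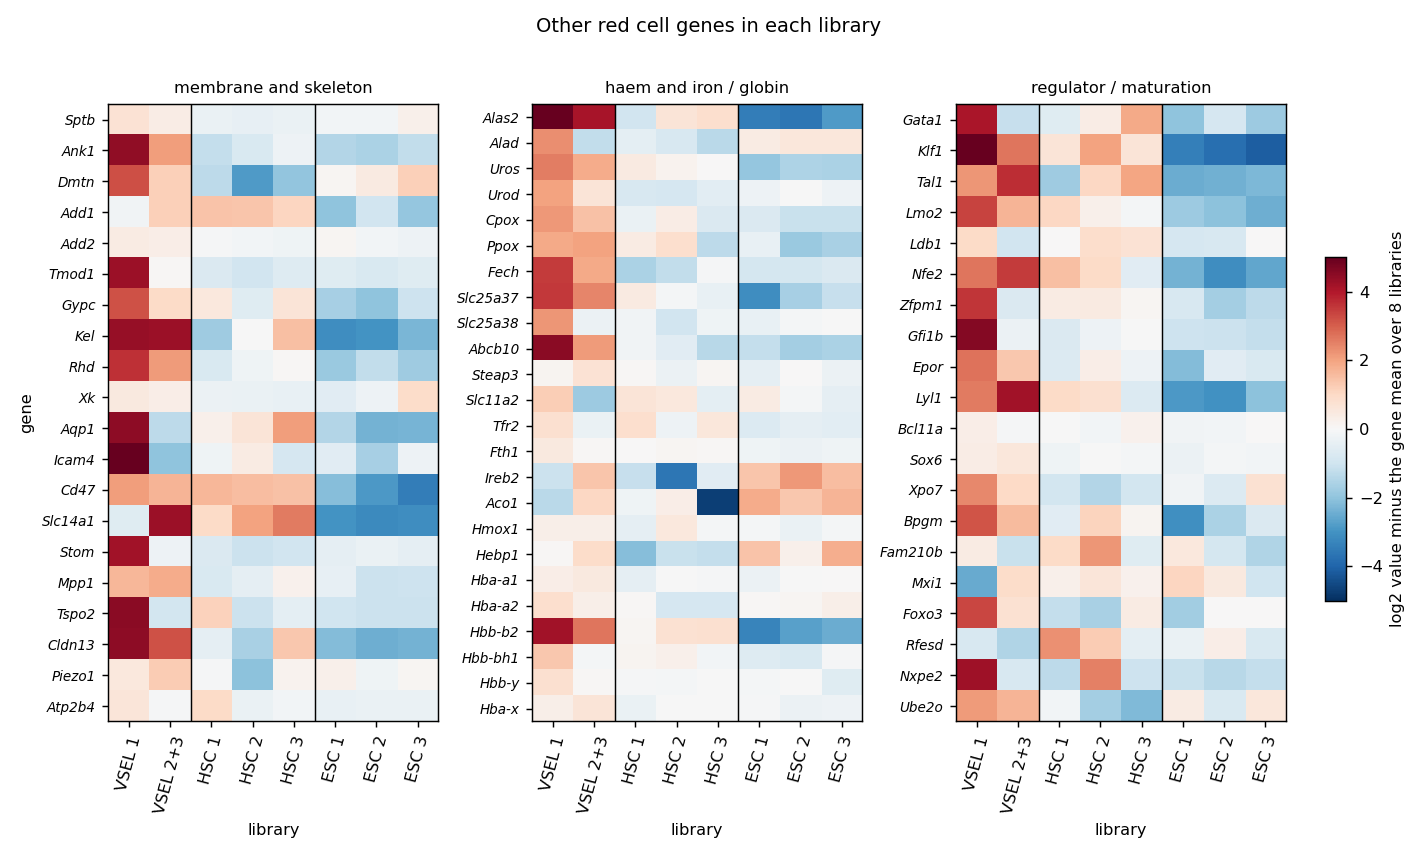
Heat map of 64 other red cell genes (rows, by list) in the 8 libraries (columns), coloured by the log2 value minus the gene's mean over the libraries. Red marks values above that mean, and the VSEL columns hold most of the red, with genes such as Gata1, Icam4 and Tspo2 red in VSEL 1 and blue in VSEL 2+3.

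Relatives of the members in their own protein families were set against the upper quartile of genes. Most genes of any kind lie under that cut in a given cell type. The share of all genes above it in some cell type was not computed, so the count is not read as a trait of these families. Of 43 measured relatives, 8 had a mean above the upper quartile of genes in some cell type, namely Car4, Slc4a2, Rhd, Ypel3, Ypel5, Tgm2, Trim26 and Trim39. Rhd, the Rh protein that pairs with the product of Rhag, measured 12.87 and 11.36 in VSEL, 8.44 to 9.28 in HSC and between 7.37 and 7.98 in ESC (difference from HSC 3.21, limma adjusted p = 0.0091). Car4, a membrane-bound carbonic anhydrase gene, was highest in ESC instead, at 10.48, 10.18 and 10.48, against 7.44 and 7.60 in VSEL and 4.16 to 4.94 in HSC. Car4 was called in all 3 contrasts, higher in VSEL than in HSC by 2.90 (adjusted p = 0.00112) and lower than in ESC (difference -2.87, adjusted p = 0.00173).

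Slc4a2, the exchanger of tissues other than red cells, measured 12.72 and 11.41 in VSEL and 9.85 to 10.21 in HSC. It was not called between them (adjusted p = 0.0625) but was called against ESC (3.77, adjusted p = 0.00964). Ypel3 measured 11.91 and 10.30 in VSEL and 11.32 to 11.74 in HSC, unlike Ypel4, and 7.48 to 8.57 in ESC (VSEL higher by 3.14, adjusted p = 0.0129). Ypel5 and Tgm2 were bright in VSEL 1 (11.17 and 12.65) and less so in VSEL 2+3 (6.72 and 7.71), and neither was called between VSEL and HSC. Trim39 was called lower in VSEL than in HSC (difference -3.28, adjusted p = 0.0417), and Trim26 was not called (-1.98, adjusted p = 0.185).

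By likeness over the 8 libraries, among 6230 genes whose values span at least 3 log2 units, the 8 genes closest to the mean profile of the members were Tifa (r = 0.986), Rhd (0.983), Abcb4 (0.977), Alas2 (0.977), Sh3bgrl (0.976), Apol11b (0.975), Cldn13 (0.971) and Vpreb3 (0.969). Tifa measured 11.18 and 10.28 in VSEL, 5.32 to 6.61 in HSC and between 4.75 and 4.96 in ESC. Vpreb3, a B lineage marker gene, measured 14.23 and 12.80 in VSEL, 9.19 to 9.95 in HSC and between 6.07 and 6.87 in ESC. Each member's own nearest genes differed. Alas2 was nearest to Slc4a1 (0.983) and Ermap (0.991), Cldn13 to Rhag (0.982), Cpox to Trim10 (0.981) and Rhd to Car2 (0.984). Arf5 (0.928) and Klhdc10 (0.925) were nearest to Epb42 on its flat probe set, and Adap1 (0.987) and Hes6 (0.986) to Hemgn. The next genes were Apol8 for Slc4a1 (0.979) and Rhag (0.967), Hbb-b2 for Ermap (0.985), Abcb10 for Trim10 (0.971), Cpox for Car2 (0.979) and 5430401H09Rik for Ypel4 (0.994).

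Ackr1, which encodes the Duffy blood group receptor, was nearest to Ypel4 (0.996), with 10.47 and 10.33 in VSEL, 5.60 to 5.84 in HSC and between 5.99 and 6.16 in ESC. The genes nearest to Car1 were Fam110a (0.984) and the B cell gene Cd72 (0.982), and those nearest to Tfrc were Pot1a (0.964) and the proliferation gene Mki67 (0.962). Correlations between members ran from 0.229 (Car1 with Tfrc) to 0.99. These values describe libraries that share cell types, and no test was made of them.

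Markers of other cells differed between the groups too, some in the direction of the members and some not. Of 7 ESC markers all 7 were called higher in VSEL than in HSC and all 7 lower than in ESC, with list medians of 9.73 and 9.80 in VSEL, 3.50 to 3.80 in HSC and between 12.35 and 12.62 in ESC. The pan-leukocyte median was 5.12 in VSEL 1 and 12.46 in VSEL 2+3, against 13.43 to 13.64 in HSC and 5.01 to 5.49 in ESC (4 of 8 called lower in VSEL than in HSC). These medians hide a split list in both VSEL libraries. In VSEL 1 Rac2, Laptm5 and Coro1a read 12.99, 12.71 and 11.46, and the rest 3.59 to 5.74. In VSEL 2+3 Ptprc, Cd48 and Itgb2 read 3.25, 3.80 and 7.37, and the rest 11.95 to 13.86. The granulocyte and monocyte median was 12.28 and 14.35 in VSEL, 12.99 to 13.37 in HSC and between 4.68 and 5.16 in ESC (1 of 8 lower). The B lineage median was 10.66 and 9.50 in VSEL, 6.83 to 7.67 in HSC and between 5.03 and 5.76 in ESC (2 of 6 higher). Macrophage markers of the erythroblast island had medians of 5.50 and 5.26 in VSEL, 5.59 to 6.28 in HSC and between 4.31 and 5.55 in ESC (1 of 8 higher and 1 lower). Cd163 lay between 2.98 and 3.21 in every library, and Adgre1 was the gene called lower. C1qa read 10.55 for VSEL 1 and 5.64 for VSEL 2+3, while its HSC libraries lay between 5.90 and 6.27. C1qb read 8.19 and 11.37 for the same libraries, with its HSC libraries between 6.88 and 8.45. Vcam1 read 6.14 and 9.82, with HSC 1, 2 and 3 at 5.43, 9.38 and 9.06. C1qa, C1qb and Vcam1 were not called between VSEL and HSC. The mesenchymal median was 6.86 and 6.35 in VSEL, 4.61 to 5.24 in HSC and between 5.13 and 6.98 in ESC (3 of 5 higher). The part of these cells in the levels of the members was not tested.

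The labels were set against the same markers. In HSC the HSC and progenitor list had medians of 5.61 to 6.48, with 2 of 8 called lower in VSEL (Gfi1 at 9.05 to 9.22 in HSC and 2.95 and 3.35 in VSEL, Slamf1 at 6.11 to 8.58 and 5.03 and 4.47). Medians of that list were 5.19 and 5.70 in VSEL and 4.72 to 5.12 in ESC. Of the other 6, Kit read 7.57 to 8.96 in HSC and Cd34 6.04 to 8.73, while Mecom, Procr, Meis1 and Hlf lay between 4.58 and 6.86. Kit was lower in VSEL, at 7.36 and 6.66, but its ESC libraries at 9.47 to 10.37 were above every HSC library. Cd34 read 4.53 in VSEL 1 and 10.58 in VSEL 2+3, the latter above every HSC library. The T and NK list lay at 11.51 to 12.31 in HSC and at 4.91 and 5.51 in VSEL (5 of 6 called lower in VSEL). The megakaryocyte and platelet list, the lineage nearest to red cells, had medians of 6.24 and 5.89 in VSEL, 5.40 to 6.17 in HSC and between 5.38 and 5.48 in ESC (1 of 5 called higher in VSEL than in HSC). These lay near the median of all genes (6.03 to 6.26) in VSEL, HSC 2 and HSC 3, and below it in HSC 1 and ESC. In HSC 1, 2 and 3 Ppbp read 2.97, 3.42 and 6.58, and Pf4 4.82, 6.34 and 6.17. Ptprc (CD45), on which the gates were split, read 3.59 and 3.25 in VSEL and 13.40 to 13.68 in HSC.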

How the data were processed

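Values were the deposited log2 expression values per probe set of 9 Affymetrix mouse arrays. Per the submitters' processing notes, Partek 6.5 and RMA made them. Sources used here name no further settings. RMA is meant to give arrays like distributions, but the quartiles of the gene values used here still differed. The upper quartile was 7.63 for VSEL 1 and 7.67 for VSEL 2+3, while the HSC and ESC libraries lay between 8.50 and 8.63. Lower quartiles ran the other way, at 4.72 and 4.78 against 4.49 to 4.55. RMA reports no detection calls, so low values near the floor have no sure order. Precision is limited by how few arrays there are. Control probe sets (64) and probe sets with several genes (932) were left out of the tests, 9211 were not listed, and 34741 of 34945 symbols were updated through RefSeq (GRCm38.p6).

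Each gene took its probe set with the highest mean. VSEL arrays 2 and 3 were averaged, which left 8 libraries. All 3 cell types were fitted together with limma 3.58.1 in R 4.3.3 (lmFit, eBayes, two-sided, 5 residual degrees of freedom), with Benjamini-Hochberg adjustment over 18193 genes in each contrast and calls at 0.05. The scripts were tested on simulated data. Planted differences of 2 log2 units were recovered in 46% for VSEL against HSC, 56% for VSEL against ESC and 56% for HSC against ESC. At 4 log2 units these shares were 54%, 72% and 86%. A gene that was not called may therefore still differ. The main fit did not pair samples by the replicate numbers of the labels. Correlations of same-numbered deviations ran from -0.0888 to 0.155. They cannot exclude pairing, because VSEL arrays 2 and 3 were nearly alike and no value for truly paired samples was at hand.

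The members and all lists were chosen with earlier results of these data known. Named were all members, up to 4 called genes with the largest difference per list for VSEL against HSC and against ESC, relatives above the upper quartile, and the nearest genes by Pearson r. The genes called between HSC and ESC, and single markers and genes that were not called, were added after their values were seen. Some genes of the lists were not analysed here. Alternatives covered the probe set rule, normalization, a filter on low values, the samples fitted and each library left out.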

Additional observations from a re-analysis of the deposited data

How the results depend on the processing

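Over 17 alternatives (16 planned and the widest-range probe set, added after the data were seen), the members' differences kept their sign, except that Epb42 and Ypel4 changed sign for HSC against ESC in 4 and 1 of their 16 settings, both around a difference near 0. Averaging probe sets lowered the Slc4a1 differences to 3.28 and 5.25 against HSC and ESC, and raised those of Epb42 from 0.47 and 0.46 to 3.64 and 3.60. Epb42 gave 6.93 and 6.86 after quantile normalization again and 6.80 and 6.75 on the probe set with the widest range. With every one of the 9 arrays kept separate, 4757 genes were called for VSEL against HSC and 4719 for VSEL against ESC, in place of 3129 and 3075. Among genes above the median 2036 were called for VSEL against HSC. With 2 groups fitted alone 1586 genes and 6 other red cell genes were called for VSEL against HSC, and 19 other red cell genes for HSC against ESC.

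Leaving out 1 library each gave 1954 to 3169 genes for VSEL against HSC, 1709 to 3056 for VSEL against ESC (2879 and 3038 for these contrasts without VSEL 1) and 2277 to 3780 for HSC against ESC, and 12 to 29, 19 to 35 and 8 to 19 of the other red cell genes. The first count was 1954 without HSC 1 and 2015 without HSC 3, and the second 1815, 1709 and 1935 without ESC 1, 2 and 3. Without 1 VSEL library the remaining one is assumed to vary like the other groups. With the replicate number as a block on the 9 arrays, 3432, 3517 and 3047 genes and 24, 26 and 14 other red cell genes were called in the 3 contrasts. With quantile normalization again and with centring on the lower quartile, 26 and 17 of the other red cell genes were called higher in VSEL than in HSC and 0 lower. Centring moved the median difference of all genes between VSEL and HSC from 0.22 to -0.03 and that between VSEL and ESC from 0.11 to -0.09. The split of calls moved with scaling: 2185 higher and 1353 lower after quantile normalization again, and 539 and 1833 after centring, against 1458 and 1671. For VSEL against ESC these were 1786 and 1350, 550 and 2187, against 1161 and 1914.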
